A study of Homo sapiens with 2 samples.

Results

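The EGF receptor family was measured here as its 4 receptor genes (EGFR, ERBB2, ERBB3 and ERBB4) and 6 of its ligand genes (AREG, EREG, HBEGF, TGFA, BTC and EGF). Members were taken by gene name from the probe annotation of the arrays, and every probe of each name was kept. This gave 10 genes, 17 probes and 35 spots, of 41000 probes and 43376 probe spots on each array. SAS cells, an established line from a human tongue squamous cell carcinoma, were compared with eSAS cells, the population obtained from them after 5 rounds of Spheroid Catch selection, in which a filter retains large spheroids. RNA of each population was hybridized with Cy3 to 1 array of the same slide, so there were 2 arrays and no replicate of either population. Differences between the arrays are therefore values without a test.

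Both populations came from the same line, and the labels give the same serum-containing medium for their culture. According to the methods, the medium used to form spheroids during selection contained epidermal growth factor and basic fibroblast growth factor. The paper's results section states that RNA was taken in log growth phase. The medium at the time of RNA extraction is not given in the sources used here. The methods also describe picking single cells to establish a line, and the labels do not say whether the eSAS cells on the array came from such a step. 1 culture stands for the selection.

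The receptors of this family are tyrosine kinases of the cell surface that act as dimers. The ligands are made as membrane-anchored precursors and are released by proteases such as ADAM17. EGF, AREG and TGFA bind EGFR, whereas EREG, HBEGF and BTC bind EGFR and ERBB4. ERBB2 has no known ligand and serves as dimer partner, and ERBB3 has a weak kinase and binds neuregulins. The bound receptors signal through adaptors to RAS and ERK and to PI3 kinase. In squamous epithelium the family is known for its part in growth and wound repair, and EGFR is often abundant in squamous carcinomas of the head and neck.

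The ligands EREG, HBEGF and AREG were the members with the highest eSAS over SAS ratios, and the sequence upstream of their starts is shown for that reason. The sequences are the 250 bases before the RefSeq gene start in GRCh38.p14, read 5′ to 3′ on the gene's strand. They lie at chr4:74364895-74365144 on the plus strand for EREG, at chr4:74444886-74445135 on the plus strand for AREG, and at chr5:140346604-140346853 on the minus strand for HBEGF. Capitals mark matches on either strand to 4 short motifs. They are the TATA box with the letters TATAAA, the cAMP response element with TGACGTCA, the GC box with GGGCGG, and the CCAAT box, whose letters are its name.
EREG: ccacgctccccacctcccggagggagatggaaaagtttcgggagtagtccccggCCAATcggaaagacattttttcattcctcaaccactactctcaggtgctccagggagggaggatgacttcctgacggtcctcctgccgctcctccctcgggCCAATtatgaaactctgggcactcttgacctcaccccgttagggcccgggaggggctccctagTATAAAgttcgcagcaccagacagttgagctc
AREG: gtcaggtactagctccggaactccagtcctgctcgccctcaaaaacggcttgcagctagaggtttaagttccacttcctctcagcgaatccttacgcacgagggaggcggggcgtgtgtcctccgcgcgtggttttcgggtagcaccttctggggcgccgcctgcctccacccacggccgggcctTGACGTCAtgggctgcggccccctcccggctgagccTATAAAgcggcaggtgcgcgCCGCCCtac
HBEGF: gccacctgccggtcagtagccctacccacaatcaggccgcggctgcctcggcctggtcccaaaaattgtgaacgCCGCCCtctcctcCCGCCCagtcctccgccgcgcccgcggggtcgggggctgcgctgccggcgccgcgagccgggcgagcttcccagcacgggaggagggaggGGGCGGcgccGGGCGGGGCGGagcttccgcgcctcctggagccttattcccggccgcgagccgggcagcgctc

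EREG and AREG, which are neighbours on chromosome 4, both had TATAAA, starting at position -32 in EREG and at position -29 in AREG relative to the gene start. These letters were in 10.7% of 35116 promoter windows of the same length. AREG also had TGACGTCA, at position -65, which 1.65% of the windows held. HBEGF had none of these and instead had 5 matches of GGGCGG, the last 2 of them overlapping by 1 base, and 76.4% G and C. GGGCGG was in 42.6% of all windows and CCAAT, found 2 times in EREG, in 32% of them. The AP-1 letters TGANTCA, which 6.57% of windows held, were in none of the 3 sequences. These matches describe letters in the windows and not measured binding.

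The scanner software's processed signal was used on a log2 scale after subtraction of each array's 75th percentile, which was 1242 intensity units for SAS and 1196 for eSAS. The software judged 69.4% of SAS probe spots and 67.5% of eSAS probe spots to be well above background, and no spot was saturated. Among 214 probes printed in 10 spots each, the log2 ratio varied between spots of a probe with an SD of 0.0756, which is technical error within a pair of arrays and holds no variation between cultures. Across 26659 probes well above background on both arrays, log2 ratios centred on a median of 0.00, with an SD of 0.36. The software had marked 194 spots of the SAS array as non-uniform, and 183 of them lay in a band of 61 rows, which held 5 of the 35 spots of the family.

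The squamous label was checked against 11 genes of squamous epithelium, and all 11 were well above background on both arrays. Their median log2 ratio was -0.48. Of 13 probes, 1 was at least 1.5-fold higher in eSAS (4.43% of all probes) and 5 at least 1.5-fold lower (6.12% of all probes). The unscaled signals of each gene's brightest probe on each array summed to 118535 in SAS and 89483 in eSAS. For KRT14 the brightest probe was not the same on both arrays. KRT14, a basal keratin, had a signal of 8749 in SAS and 88.3 in eSAS at one probe and of 3136 and 1286 at the other. KRT6B, a keratin of activated epithelium, differed in the opposite direction, with 25.9 in SAS and 153 in eSAS. The related KRT6A did not share this direction, with 46.9 in SAS and 32.7 in eSAS. Among markers of other cells, no fibroblast gene of 6 was well above background on both arrays. COL1A1 was so in SAS alone and LUM in eSAS alone. LUM was at least 2.40-fold higher in eSAS, a direction that the filter fixes. Summed in the same way, the fibroblast list had 52.3 in SAS and 57.8 in eSAS, and most of its probes were not well above background on either array. The endothelial list had 1 gene of 4 well above background on both arrays, VWF, at 1 of its 2 probes. CDH5 was so in SAS alone, with 17.0 in SAS and 6.88 in eSAS. The leukocyte list had 1 of 4 on both arrays, CD14, whereas PTPRC, the pan-leukocyte marker, was not well above background on either array. The part of this shift of squamous markers in the values of the EGF family was not tested. In such bulk RNA, fewer cells of a kind and less RNA per cell cannot be told apart.

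Of the 17 probes of the family, 14 were well above background on both arrays, and 3 (both of ERBB4 and that of EGF) on neither. Epiregulin had the highest values in eSAS relative to SAS, followed by HBEGF and AREG, and the receptors lay close to equal signal. At 9 of the 14 probes the value was higher in eSAS and at 5 it was lower, with a median log2 ratio of 0.13 and a range from -0.26 to 0.69. In all, 2 of 14 probes, 14.3%, were at least 1.5-fold higher in eSAS, and both belong to EREG. Among all 28439 probes well above background on at least 1 array, 4.43% were at least 1.5-fold higher. No probe of the family was at least 1.5-fold lower (6.12% of all probes), at least 2-fold higher (1.83%) or at least 2-fold lower (1.97%). Signals of different probes cannot be set against each other on such an array, so no order of levels between the genes is given.

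**Figure D1:**
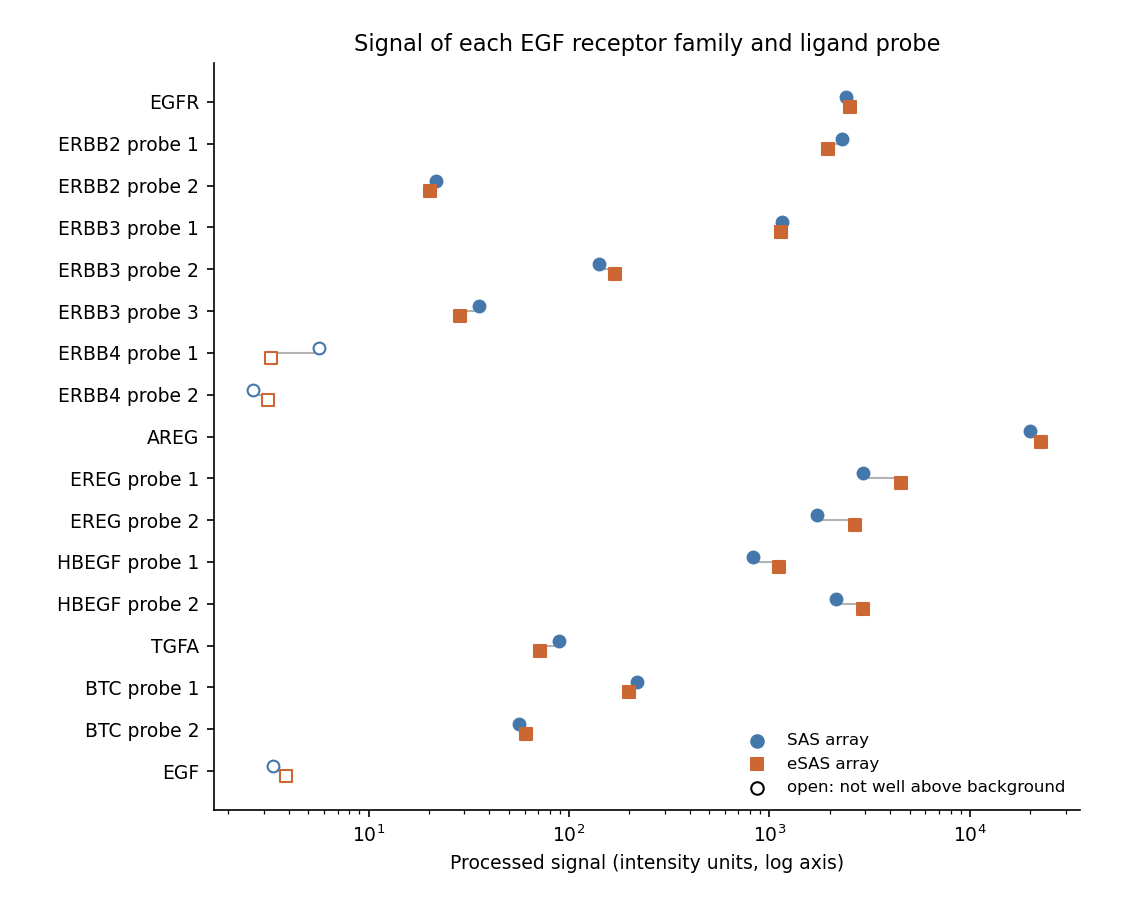
Processed signal (intensity units, log axis) of each probe of the 10 genes on the SAS array (circles) and the eSAS array (squares), with the mean of unmarked spots for EGFR and ERBB2 probe 1. Open symbols are probes not well above background. The 2 EREG and 2 HBEGF probes lie further right in eSAS, and the EGFR and ERBB3 probe 1 symbols nearly coincide.

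EREG, epiregulin, was read by 2 probes. The first (hg18, chr4:75472873-75472932) had a signal of 2916 in SAS and 4525 in eSAS, a log2 ratio of 0.69 or 1.61-fold. The second gave 1716 in SAS and 2673 in eSAS, which was 0.69 or 1.62-fold. Its annotated position (hg18, chr4:75465717-75467283) spans 1567 bases, more than a probe of this array is long, as the position of a probe across an exon junction would. The log2 ratios of the probes differed by 0.0054, less than the SD between replicate spots, and eSAS was the higher array at both. The software's own error for the log2 ratio, which combines its errors for both spots, was 0.20 for each of them. Both spots lay outside the band of marked rows.

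AREG, amphiregulin, also an EGFR ligand, had 1 probe (hg18, chr4:75539382-75539441) with 19877 in SAS and 22518 in eSAS. Its log2 ratio of 0.23, 1.18-fold, was about the size of the software's error of 0.20. The local background of this spot on the eSAS array was marked as an outlier, while the spot itself was not. Its ratio was smaller than at either EREG probe.

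HBEGF, the heparin-binding ligand that is also the receptor of diphtheria toxin, was likewise read by 2 probes on the minus strand. Signals were 824 in SAS and 1118 in eSAS at the first (hg18, chr5:139695692-139695751), and 2148 and 2921 at the second (hg18, chr5:139693236-139693295). The log2 ratios were 0.49 and 0.50, both 1.41-fold, and differed by 0.0034. The first probe lay in the band of marked rows and the second outside it, and neither spot was marked. Thus eSAS was higher at both probes by nearly the same amount, below the 1.5-fold used for counting.

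The other measured ligands, TGFA and BTC, had no common direction. TGFA, transforming growth factor alpha (hg18, chr2:70528827-70528886, minus strand), had 88.6 in SAS and 71.5 in eSAS, a log2 ratio of -0.26 or 1.19-fold lower, with a software error of 0.22. BTC, betacellulin, had 218 and 200 at one probe (hg18, chr4:75894862-75894921, minus strand; log2 ratio -0.07) and 56.5 and 60.8 at the other (hg18, chr4:75890677-75890736, minus strand; 0.16). The BTC probes thus pointed in opposite directions and differed by 0.23. EGF itself (hg18, chr4:111152138-111152197) had 3.32 in SAS and 3.87 in eSAS, not well above background on either array. No ratio is given for it.

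EGFR, the receptor shared by these ligands, was printed in 10 spots of 1 probe (hg18, chr7:55242335-55242394). In 9 unmarked spots the SAS signal ran from 2164 to 2525 with a median of 2475, and the eSAS signal from 2352 to 2618 with a median of 2519. The spots of the arrays overlapped, and the mean log2 ratio was 0.10 ± 0.055 (SD, 9 spots of the same pair of arrays), with a range from 0.050 to 0.23. The remaining spot, in the band of rows, was marked non-uniform on the SAS array, where it gave 1245 against 2366 in eSAS, a log2 ratio of 0.98. With it, the mean was 0.19 ± 0.28 (SD, 10 spots), so that 1 marked spot moved the log2 value from 0.10 to 0.19. Over the 7 spots outside the band it was 0.089.

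ERBB2, the partner receptor, had 1 probe in 10 spots (hg18, chr17:35138355-35138414), all unmarked. SAS ran from 2263 to 2405 with a median of 2300 and eSAS from 1910 to 2086 with a median of 1950, so the spots of the arrays did not overlap. The mean log2 ratio was -0.18 ± 0.032 (SD, 10 spots of the same pair of arrays), with a range from -0.22 to -0.12, that is 1.13-fold lower in eSAS. The spread of spots is technical, so this separation concerns the 2 RNA samples and not the populations. The second ERBB2 probe (hg18, chr17:35120176-35120235) was dim, with 21.8 and 20.3, a log2 ratio of -0.05 and a software error of 0.36. After scaling, the unmarked EGFR spots and those of the first ERBB2 probe, from the same arrays, thus lay on opposite sides of equal signal. Without scaling between the arrays, the mean log2 ratio of EGFR was 0.05.

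**Figure D2:**
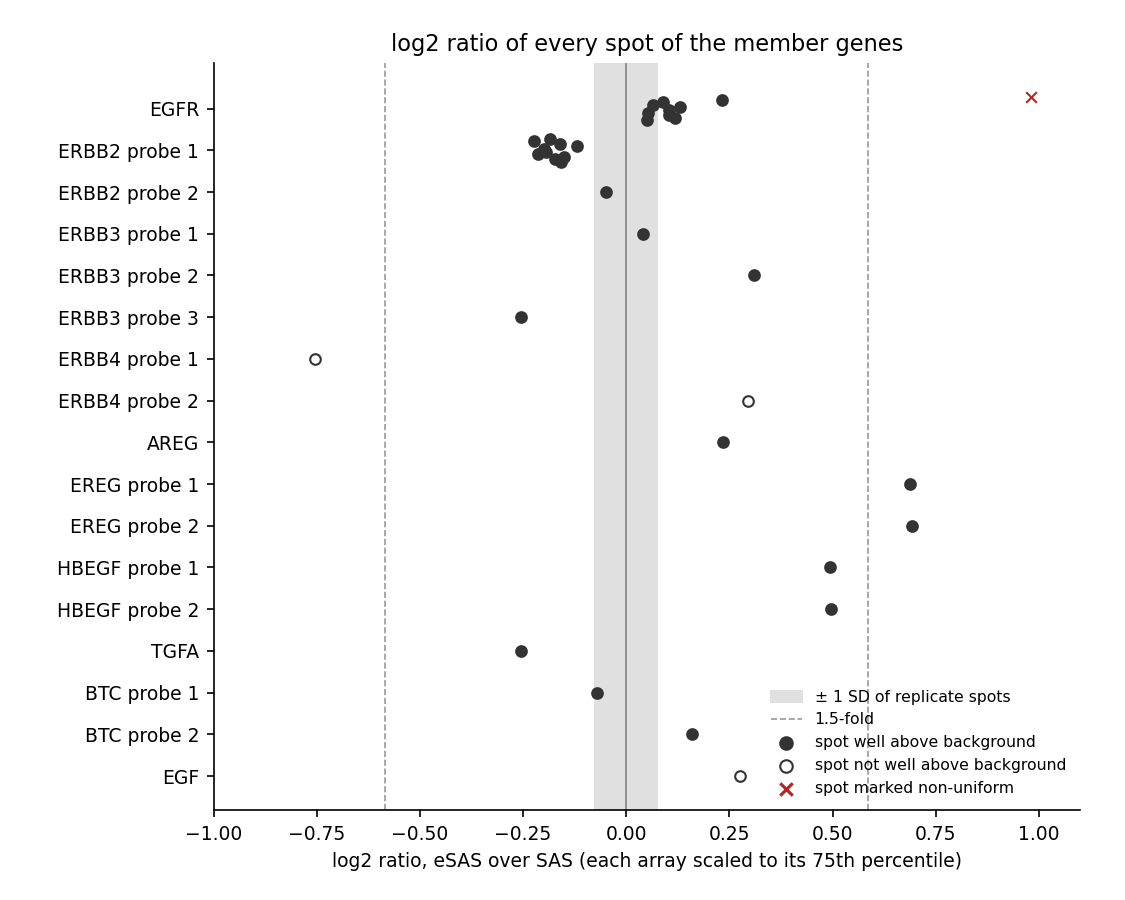
log2 ratio of eSAS over SAS for each of the 35 spots of the family (1 row per probe), with the grey band at ± 1 SD of replicate spots and dashed lines at 1.5-fold. The EREG spots lie past the dashed line, all 9 unmarked EGFR spots to the right of 0 and all 10 spots of ERBB2 probe 1 to the left, and the cross at 0.98 is the marked EGFR spot. Open circles are spots not well above background and carry no order.

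ERBB3, the neuregulin receptor with a weak kinase, was read by 3 probes made to different transcripts. The probe to its RefSeq mRNA (hg18, chr12:54782427-54782486) had 1156 in SAS and 1145 in eSAS, a log2 ratio of 0.04. The probe to a second deposited transcript (hg18, chr12:54768980-54769039) had 142 and 169, a log2 ratio of 0.31 with an error of 0.21. The last, to another such transcript (hg18, chr12:54773897-54773956) had 35.4 and 28.6, a log2 ratio of -0.25 with an error of 0.29. The probes differed in direction, and their mean was 0.03. The values of the first, with an error of 0.20, and of the last lay within the software's error. Whether the probes tell these transcripts apart was not tested. ERBB4 had 5.68 in SAS and 3.24 in eSAS at one probe (hg18, chr2:211955253-211955312) and 2.65 and 3.14 at the other (hg18, chr2:211948760-211948819). Neither probe was well above background on either array, so ERBB4, the receptor that EREG, HBEGF and BTC share besides EGFR, was not detectable at this signal. Positions are those of the array annotation, and exon or untranslated region was not assigned here for that build.

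EREG, AREG and BTC lie close together on chromosome 4, with the AREG probe 73.7 kb from the first EREG probe, and the genes near them were read out too. The window of 1000 kb on either side of EREG was chosen with these values known. It held 39 probes, 14 of them well above background on both arrays. The 8 genes other than the members had a median log2 ratio of 0.12 and a range from -0.09 to 1.76. CXCL1, a neutrophil chemokine, had 1017 in SAS and 1576 in eSAS, a log2 ratio of 0.69, whereas CXCL2, a related chemokine, had -0.19 and 0.00 at its probes. The highest value was that of a probe with no gene name, A_32_P4882, 64.0 kb before EREG, with 32.6 in SAS and 106.5 in eSAS, or 3.40-fold. MTHFD2L, an enzyme of folate metabolism, was 1.43-fold higher at one probe. At its other probe, in the band of marked rows, it was not well above background in SAS and at least 3.75-fold higher in eSAS. PARM1, on the far side of BTC, was at least 2.19-fold lower at 1 probe, which was well above background in SAS only, and not well above background on either array at its 2 other probes. PARM1 passed the filter through SAS alone and this MTHFD2L probe through eSAS alone, which fixes the direction of both bounds. Among the other genes measured on both arrays, the lowest gene mean was -0.09 and the highest 1.76. EPGN, the epigen ligand of the same cluster, was not well above background on either array, with 2.72 in SAS and 12.7 in eSAS.

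**Figure D3:**
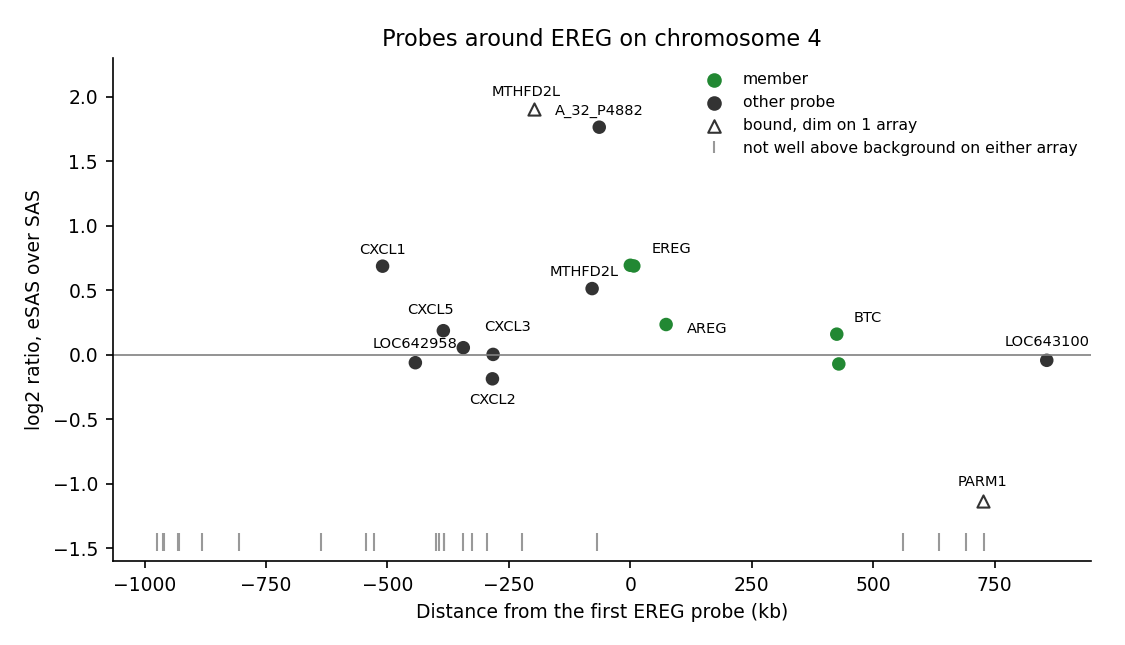
log2 ratio of eSAS over SAS for probes within 1000 kb of the first EREG probe, by distance in kb. Green points are EREG, AREG and BTC, black points other probes well above background on both arrays, triangles bounds where 1 array was dim, and grey ticks probes not well above background on either array. CXCL1 and EREG lie at 0.69, and A_32_P4882 is at 1.76.

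The pathway around the receptors was described with 5 lists of 76 genes, of which 74 had a probe on the array by name (NRG3 and SOS2 had none) and 71 were well above background on both arrays. Of 113 probes tested in these lists, 4 were at least 1.5-fold higher in eSAS and 2 at least 1.5-fold lower, with 1 in each direction at 2-fold. Over all probes these shares were 4.43%, 6.12%, 1.83% and 1.97%, so the 113 probes of the 5 lists held no excess of such probes. Single lists differed from this. Of the 4 higher probes, 3 were among the 30 probes of genes that respond to ERK, above the 4.43% of all probes. Both lower probes were among the 3 tested for the remaining ligands, and their values are bounds. The median over all 19476 genes was 0.00. The remaining ligands are mostly neuregulins of ERBB3 and ERBB4, and of them only NRG1 was measured on both arrays. NRG1 had 992 in SAS and 656 in eSAS at the 1 of its 4 probes that was well above background, a log2 ratio of -0.54 or 1.46-fold lower. NRG2, with 41.2 and 14.3, was at least 2.61-fold lower at 1 of its 2 probes, since eSAS was not well above background there. NRG4, with 25.03 and 12.7, was at least 1.59-fold lower on the same grounds. Both passed the filter through SAS alone, which fixes this direction.

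Among 10 genes of ligand shedding and processing, the median was -0.02 and no probe of 14 reached 1.5-fold. The lowest was TIMP3, an inhibitor of ADAM17, at -0.45 and the highest RHBDF2, which escorts ADAM17 to the cell surface, at 0.25. ADAM17 itself had 0.05 over 3 probes. The 23 adaptors and kinases with a probe had a median of 0.03, and no probe of 37 reached 1.5-fold. They ranged from the kinase ARAF at -0.45 to the adaptor SHC1 at 0.31.

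The 19 inhibitors and genes of receptor turnover had a median of 0.05, with 1 of 29 probes at least 1.5-fold higher in eSAS, near the 4.43% of all probes, and none lower, against 6.12%. That probe was of CBLB, a ubiquitin ligase of the CBL family, which had 321 in SAS and 494 in eSAS, 1.60-fold, while its other probe was not well above background. The lowest was UBASH3B, a phosphatase that binds CBL proteins, at -0.57. The 18 genes that respond to ERK had a median of 0.10, with 3 of 30 probes at least 1.5-fold higher and none lower, against the same shares of all probes. SPRY1, a feedback inhibitor of receptor tyrosine kinases, had 190 in SAS and 399 in eSAS, 2.18-fold, the only probe of these lists at least 2-fold higher. EGR1, an immediate early transcription factor, was lowest at -0.25. DUSP6, a phosphatase that acts on ERK, had -0.06, and the related SPRY2 and SPRY4 had -0.10 and 0.09.

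**Figure D4:**
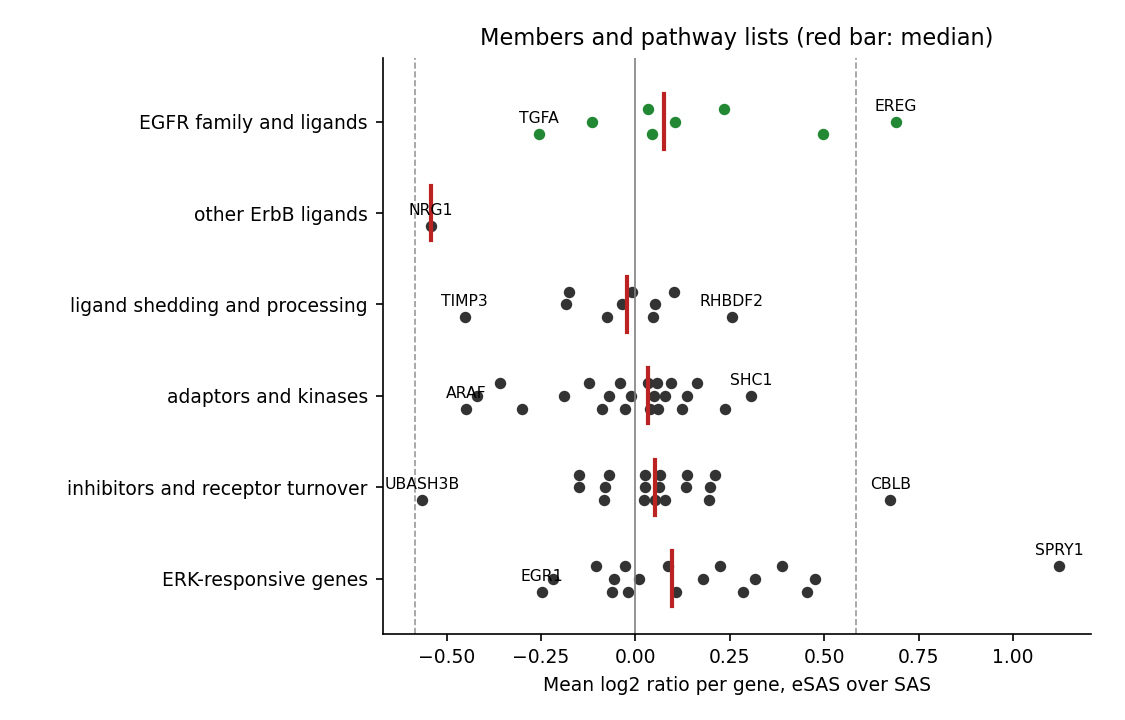
Mean log2 ratio of eSAS over SAS per gene (points) for the family (green) and 5 pathway lists (black), over probes well above background on both arrays. Red bars are medians, dashed lines 1.5-fold, and the lowest and highest gene of each list is named. Medians of lists with over 1 gene lie between -0.02 and 0.10, and SPRY1 at 1.12 is the highest gene.

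The ratios were stable under most settings but not under one background correction. When normexp was fitted on all spots, EREG was at 0.29, below 1.5-fold, EGFR at -0.19 and AREG at -0.33, and TGFA and BTC at 1.96 and 1.82. The median over all probes was then 0.53. When spots with a marked local background were left out of that fit, all of these genes kept their direction and EREG its 1.5-fold. HBEGF stayed between 0.35 and 0.53 over all 15 settings. Without scaling between the arrays, the means of ERBB3 and BTC, close to 0 as reported, were -0.02 and -0.01.

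**Figure D5:**
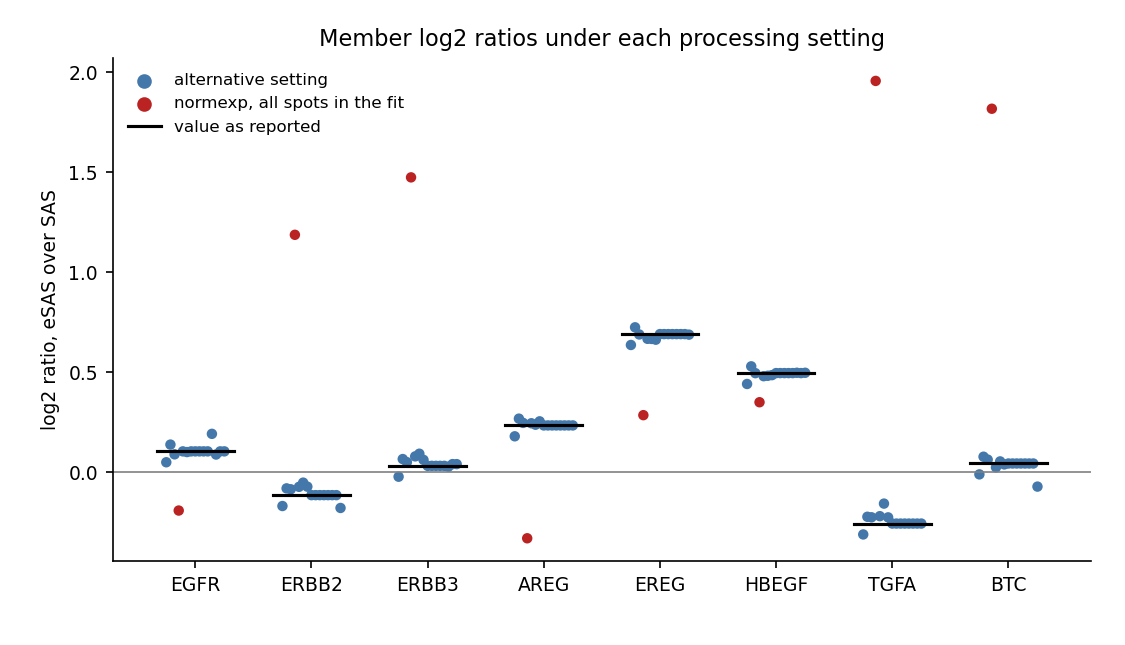
log2 ratio of eSAS over SAS of the 8 measured genes as reported (black line) and under each of 15 other processing settings (points, red for normexp fitted on all spots). Apart from the red points, EREG and HBEGF stay near 0.69 and 0.50, and the red points range from -0.33 for AREG to 1.96 for TGFA.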

How the data were processed

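Total RNA of SAS and eSAS cells was labelled with Cy3 and hybridized to 1 array each. The deposited files hold the scanner software's (Agilent Feature Extraction 10.7.3.1) linear intensity values per spot. Their processed signal had been background-corrected by the software and not scaled between arrays, and the authors' series table was equal to it at all 45015 spots. The paper's methods name no scaling.

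Here log2 of the processed signal minus the array's 75th percentile over non-control spots was averaged over unmarked spots of a probe and then over a gene's probes well above background on both arrays (over 50% of spots). Where only 1 array was so, folds are bounds against the dim array's lowest signal well above background, 12.8 for SAS and 15.2 for eSAS, or the probe's own if higher. Named genes were the members, the highest and lowest gene of each list, and list genes of at least 2-fold; ADAM17, DUSP6, SPRY2, SPRY4, NRG4, EPGN, the marker genes, the chromosome 4 genes and TOB1 were named after their values were seen. Some values of a list are not reported here, although its counts include them. Members and lists were chosen with earlier results of these data known. No test was made with 1 array per population, whose number limits the precision. Alternatives covered scaling, background, pixel summary, filters and marked spots (limma 3.58.1 in R 4.3.3; Python 3.11.15). Counting at 2-fold was tested on simulated data in which no probe was dim on 1 array only. The 1.5-fold counts and the bounds were not covered by it.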

Additional observations from a re-analysis of the deposited data

How the results depend on the processing

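Of 15 alternative settings, normexp with an offset of 50 fitted on all spots moved most values. The log2 ratios became -0.19 for EGFR, 1.19 for ERBB2, 1.47 for ERBB3, -0.33 for AREG and 0.29 for EREG. Those of HBEGF, TGFA and BTC became 0.35, 1.96 and 1.82. In the family, 7 probes were at least 1.5-fold and 6 at least 2-fold higher, and the median over probes was 0.46. The list medians, taken over gene means, were 0.088 (other ligands), -0.15 (shedding), 0.26 (adaptors and kinases) and 0.95 (inhibitors). The same fit without 26 spots of marked local background moved none of these. With marked spots kept EGFR was 0.19, without background correction TGFA was -0.16, and with the brightest probe only BTC was -0.071. Without a filter on dim probes 1 probe of the family was at least 1.5-fold lower and the other ligands' median was -0.37, and with median pixels it was -0.44. The cause was not tested.

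Counts over all probes moved under more settings than the family's counts did. The family's count at 1.5-fold higher rests on 2 probes of EREG, neither of them dim, so it is a weak measure of stability. Against 1261 higher and 1740 lower at 1.5-fold, normexp without marked backgrounds gave 404 and 806, median pixels 417 and 785, and no background correction 549 and 797. Without a filter there were 2614 and 3486, where both arrays had to be well above background 824 were higher, and normexp on all spots gave 13503 higher. At 2-fold, 520 higher and 559 lower became 86 and 156, 89 and 134, 125 and 161, 1375 and 1536, 250 and 335, and 11264 and 183, in the same order of settings, and 884 lower without a limit for dim signals.

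No paired analysis was possible because each population had 1 array. Both arrays were on the same slide, so the slide could not serve as a block. Probes such as those of ERBB4 and EGF, not well above background, could not show a difference.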

Other observations

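TOB1, an antiproliferative protein that takes its name from binding to ERBB2, was chosen after its values were seen. One probe had 1158 in SAS and 1772 in eSAS, a log2 ratio of 0.67 or 1.59-fold, and its other probe was left out because its spot was marked as non-uniform.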
